A study of Mus musculus with 30 samples.

Results

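The growth hormone and STAT5 responsive genes of the liver examined here were 10 genes measured in male mouse liver: Hsd3b5, Slco1a1, Elovl3, Serpina4-ps1, Socs2, Cish, Bcl6, Igf1, Igfals and Ghr. A probe set counted as theirs where the platform annotation gave it that symbol alone, and for a gene with several such probe sets the brightest over the 30 arrays was taken. All 10 genes were found among the 22180 genes with such a probe set, through 12 probe sets of their own. Livers came from male C57Bl/6NCr mice, 1 animal per array, and every animal had been suckled by a normally nourished dam. NN offspring were born to dams fed freely and UN offspring to dams whose calories were cut by 40% in pregnancy. The first cohort, fed chow, was killed at 9 weeks of age (3 NN and 3 UN). The second (4 NN and 4 UN) had eaten a high-fat diet for 8 weeks when killed at 17 weeks. The last, killed at 22 weeks, had eaten it for 13 weeks and over the final 5 had received vehicle (4 NN-Veh and 4 UN-Veh) or the bile acid tauroursodeoxycholic acid, TUDCA (4 NN-TU and 4 UN-TU). Age, weeks of diet and cohort changed together, so in comparisons between ages they cannot be told apart.

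Growth hormone from the pituitary binds its receptor on hepatocytes, the kinase JAK2 is activated and the transcription factor STAT5B is phosphorylated and moves to the nucleus. In male rodents the hormone is released in pulses with long gaps between them, and STAT5B is activated pulse by pulse. This pattern is known to maintain a set of male-biased liver genes, among them Hsd3b5, Slco1a1, Elovl3 and Serpina4-ps1. STAT5 also induces Socs2 and Cish, whose proteins act back on the receptor, and lowers Bcl6, a repressor that can occupy STAT5 sites. The endocrine products of the pathway are IGF1 and IGFALS, which circulate together in a complex.

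STAT5 dimers bind a short inverted repeat, TTCNNNGAA, whose pattern reads the same on both strands. RefSeq promoter windows of build GRCm38.p6, from 250 bases before to 50 bases after each annotated start, were at hand for 7 of the 10 genes, in 11 windows. Elovl3, Serpina4-ps1 and Socs2 had no window and are only named. The motif was found in 5 of the 11 windows, against 8.3% of all 32851 promoter windows of the table. Several windows belong to 1 gene, and by gene the motif was found in 3 of 7 (Cish, Bcl6 and Igfals), against 9.55% of the 27025 genes of the table. It was not found in the windows of Hsd3b5, Slco1a1, Igf1 or Ghr, which says only that these letters are not in these windows.

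The windows of Hsd3b5 and Slco1a1 are shown because these male-biased genes varied widely in signal and, of the 3 that varied most, they are those with a window. Each run covers the 150 bases before the start, at chr3:98645535-98645684 and chr6:141946963-141947112, both on the minus strand, with no motif and so no capitals.
Hsd3b5: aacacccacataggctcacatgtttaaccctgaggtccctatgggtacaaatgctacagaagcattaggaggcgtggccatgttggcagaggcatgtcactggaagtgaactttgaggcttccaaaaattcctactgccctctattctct
Slco1a1: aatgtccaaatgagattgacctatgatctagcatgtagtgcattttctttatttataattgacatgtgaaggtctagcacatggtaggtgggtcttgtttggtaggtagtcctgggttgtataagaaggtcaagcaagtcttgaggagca

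The windows of Cish and Bcl6 are shown because they hold several copies of the motif, in capitals, in a gene induced by STAT5 and in a gene lowered by it. The Cish run, on the plus strand at chr9:107296529-107296678, ends 20 bases after the start and holds 2 copies. The Bcl6 runs lie on the minus strand before 2 annotated starts, at chr16:23988912-23989052 and chr16:23981343-23981483, with 1 and 3 copies.
Cish: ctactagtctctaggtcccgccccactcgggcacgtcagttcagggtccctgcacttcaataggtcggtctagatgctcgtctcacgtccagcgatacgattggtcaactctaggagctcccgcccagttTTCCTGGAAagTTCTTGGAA
Bcl6 start 1: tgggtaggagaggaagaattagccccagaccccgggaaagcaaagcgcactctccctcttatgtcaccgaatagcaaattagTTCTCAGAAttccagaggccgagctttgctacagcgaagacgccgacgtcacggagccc
Bcl6 start 2: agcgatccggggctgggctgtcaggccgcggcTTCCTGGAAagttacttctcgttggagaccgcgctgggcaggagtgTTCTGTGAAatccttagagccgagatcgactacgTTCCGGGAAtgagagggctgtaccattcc
The 2 Igfals windows with the motif, plus strand, held 1 copy each, at chr17:24877598-24877627 and chr17:24878163-24878192, and the window of Igfals start 3 held none.
Igfals start 1: gatctataatTTCTCAGAAaagaggctgag
Igfals start 2: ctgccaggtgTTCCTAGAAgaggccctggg

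All values below are log2 signals as deposited, or differences between them, where a difference of 1 is a linear fold of 2. Array medians lay between 4.11 and 4.25, and a signal near them is weak. UN replicate 14 of 17 weeks stood apart: the SD over its probe sets was 1.48 against 1.90 to 2.01 on the other 29 arrays, and its mean over 11 hepatocyte markers was 9.21 against 11.3 to 11.8. Its median correlation with the others was 0.883, that of UN replicate 13 of the same group 0.973, and those of the other 28 between 0.983 and 0.991. Replicate 13 also had the highest mean over 8 macrophage markers, 8.14 against 6.26 to 6.77 in NN at 17 weeks. Differences of the 10 genes that involve UN at 17 weeks and passed a threshold are given with and without replicate 14, and the part of these arrays was otherwise not tested. In whole liver, fewer cells of a type and less RNA per cell cannot be told apart. The labelled sex was borne out, with Xist at 2.28 to 2.95 and Uty, Kdm5d and Eif2s3y between 4.34 and 8.10.

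The 10 genes fell into 3 kinds by how far their group means were spread. Hsd3b5, Serpina4-ps1 and Slco1a1 spanned 6.08, 5.35 and 4.20 between their highest and lowest group mean. Elovl3, Socs2 and Bcl6 spanned 2.04, 2.03 and 1.49, and the means of Igfals, Ghr, Igf1 and Cish spanned 1.05, 0.88, 0.78 and 0.31. The lowest group mean of Hsd3b5, Elovl3, Bcl6, Igf1, Igfals and Ghr was that of UN at 17 weeks, the group that holds replicate 14. Along the order of the 8 group means, neighbouring groups did not overlap at 1 step each for Slco1a1, Serpina4-ps1 and Igf1, and overlapped at every step for the other 7 genes. No such count over all probe sets is given here for comparison. The plot of every animal by group shows Hsd3b5, Slco1a1 and Serpina4-ps1 at the top of their range at 9 weeks.

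**Figure D1:**
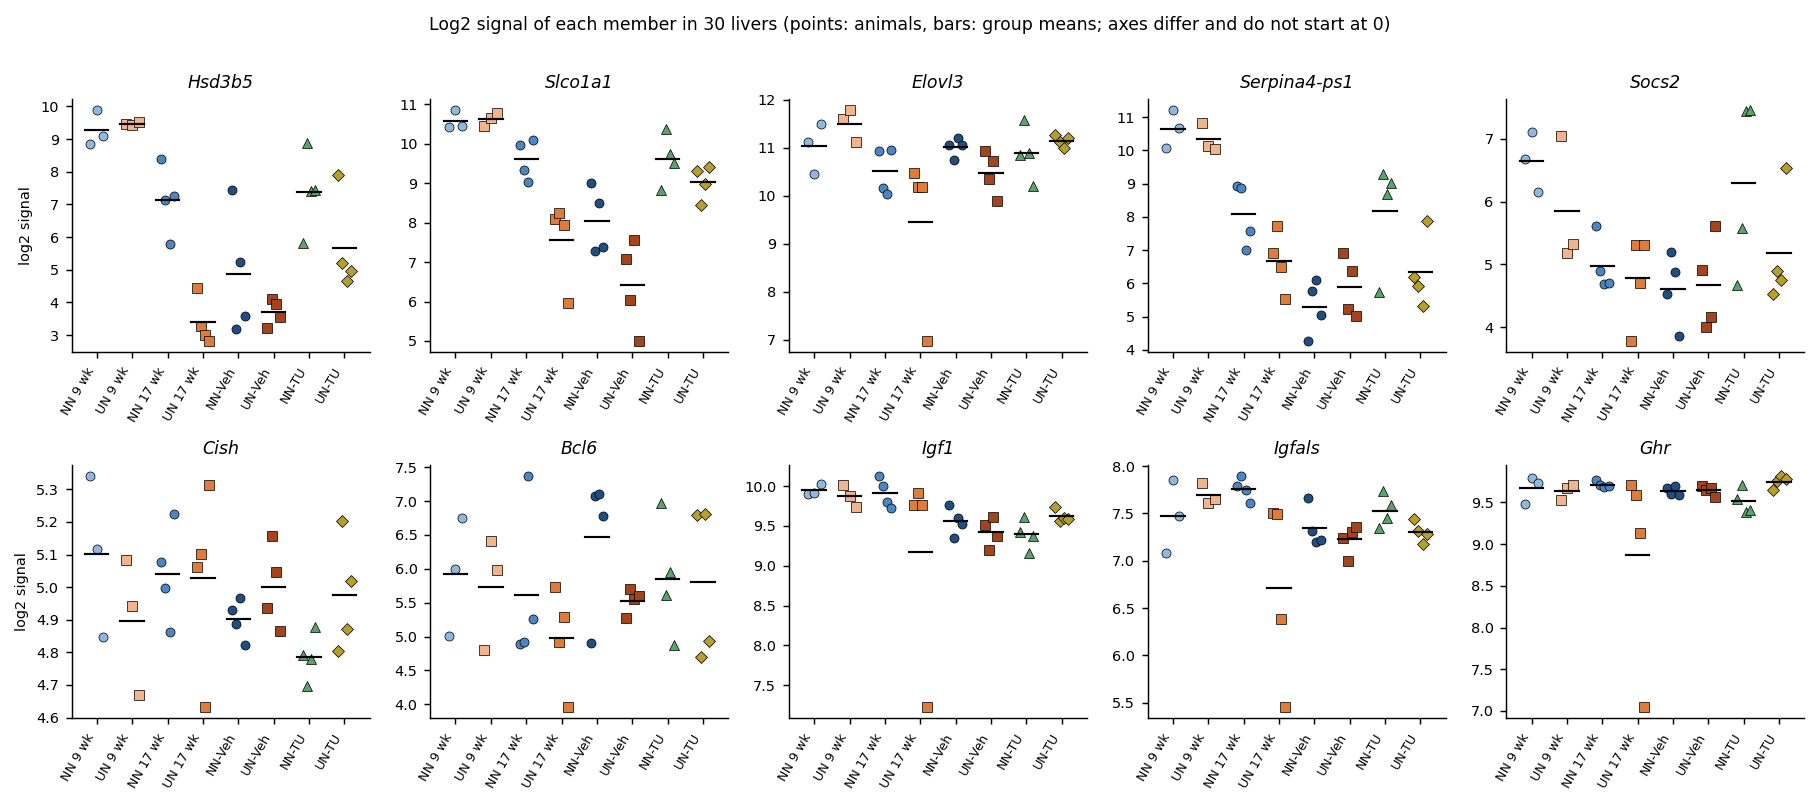
Log2 signal (y axis, a separate scale for each gene, not starting at 0) of the 10 genes in each of the 30 animals, by group (x axis), with 1 point per animal and a bar at the group mean. Hsd3b5, Slco1a1 and Serpina4-ps1 are highest in both groups of 9 weeks, and Igf1, Igfals, Ghr and Elovl3 have their lowest point in UN replicate 14 of 17 weeks.

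Hsd3b5, a hydroxysteroid dehydrogenase of male mouse liver that reduces ketosteroids, was the most variable. At 9 weeks its log2 signal was 8.86, 9.88 and 9.10 in NN and 9.46, 9.42 and 9.51 in UN. At 17 weeks it was 8.40, 7.14, 5.79 and 7.25 in NN and 4.44, 3.29, 2.99 and 2.83 in UN. At these ages the NN and UN animals overlapped at 9 weeks and did not overlap at 17 weeks, when all 8 were below every animal of 9 weeks. At 22 weeks it was 7.44, 3.17, 5.22 and 3.58 in NN-Veh, 3.23, 4.11, 3.95 and 3.56 in UN-Veh, 5.82, 8.89, 7.40 and 7.45 in NN-TU and 7.89, 5.22, 4.65 and 4.96 in UN-TU. All 4 UN-TU animals were above all 4 UN-Veh animals, whereas NN-TU and NN-Veh overlapped. The order of the means was UN and NN at 9 weeks, NN-TU, NN at 17 weeks, UN-TU, NN-Veh, UN-Veh and UN at 17 weeks, and each neighbour overlapped the next. On 9 arrays, namely 3 of UN at 17 weeks, 2 of NN-Veh and all 4 of UN-Veh, the signal lay under the array's median. No measure of background was at hand, so log2 differences of Hsd3b5 against these groups are given as fitted and their exact size is uncertain. Probes of Hsd3b5 may be shared with close relatives, and 2 further probe sets that the annotation assigns to Hsd3b4, Gm10681 and Hsd3b5 together had identical values.

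Slco1a1 encodes an organic anion transporter of the hepatocyte membrane. Its log2 signal at 9 weeks was 10.43, 10.85 and 10.46 in NN and 10.45, 10.64 and 10.77 in UN. At 17 weeks it was 9.98, 9.33, 9.02 and 10.09 in NN and 8.08, 8.25, 7.94 and 5.96 in UN, without overlap. At 22 weeks it was 9.00, 7.28, 8.50 and 7.39 in NN-Veh and 7.09, 6.03, 7.57 and 5.005 in UN-Veh, which overlapped. With TUDCA it was 8.82, 10.37, 9.74 and 9.52 in NN-TU and 9.32, 8.45, 8.98 and 9.42 in UN-TU. Every UN-TU animal was above every UN-Veh animal, and 3 of 4 NN-TU animals were above every NN-Veh animal. In the order of its means both groups of 9 weeks came first, apart from the rest, then NN-TU, NN at 17 weeks, UN-TU, NN-Veh, UN at 17 weeks and UN-Veh.

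Serpina4-ps1 is a transcribed serpin pseudogene that is male-biased in mouse liver. Its log2 signal was 10.06, 11.21 and 10.68 in NN and 10.82, 10.13 and 10.04 in UN at 9 weeks. At 17 weeks it was 8.93, 8.88, 6.996 and 7.57 in NN and 6.90, 7.72, 6.51 and 5.54 in UN. All animals of 17 weeks were below those of 9 weeks, and NN and UN overlapped at each of these ages. At 22 weeks it was 4.27, 5.78, 6.09 and 5.04 in NN-Veh, 6.93, 5.24, 6.36 and 5.03 in UN-Veh, 5.75, 9.29, 8.69 and 9.01 in NN-TU and 6.21, 5.93, 5.31 and 7.87 in UN-TU. The NN-TU group was split, with replicate 19 inside the NN-Veh range and the other 3 above every animal of that group. The order of the means was NN and UN at 9 weeks, then, apart from them, NN-TU, NN at 17 weeks, UN at 17 weeks, UN-TU, UN-Veh and NN-Veh.

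Elovl3, an elongase of very long chain fatty acids, moved far less than the other 3 male-biased genes. Its log2 signal was 11.12, 10.46 and 11.51 in NN and 11.59, 11.78 and 11.12 in UN at 9 weeks, and 10.94, 10.17, 10.03 and 10.96 in NN and 10.47, 10.18, 10.18 and 6.98 in UN at 17 weeks. At 22 weeks it was 11.07, 10.74, 11.20 and 11.07 in NN-Veh, 10.94, 10.35, 10.72 and 9.90 in UN-Veh, 10.86, 11.59, 10.89 and 10.21 in NN-TU and 11.27, 11.11, 10.99 and 11.20 in UN-TU. The single low value was UN replicate 14, and the mean of the other 3 UN animals of 17 weeks was 10.28. UN-Veh lay below every UN animal of 9 weeks and below every UN-TU animal.

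The comparison of 22 weeks with vehicle and 9 weeks asked how the genes stood after the long diet. Of the male-biased genes 3 fell in both NN and UN. In NN, Serpina4-ps1 fell by 5.35 (SE 0.66, limma adjusted p = 4.16e-05), Hsd3b5 by 4.42 (SE 0.77, p adjusted by limma 0.0016) and Slco1a1 by 2.54 (SE 0.45, 0.00198). These were 3 of the 10 genes, none called higher, where 3.43% of all 25341 probe sets tested were called at an adjusted p under 0.05. The difference of Socs2 was -2.03 (adjusted p = 0.0536) and that of Igf1 -0.39 (adjusted p = 0.0626), which passed without NN-Veh replicate 15 (0.038) or NN-TU replicate 21 (0.0493). In UN, 6 of the 10 genes fell, with 6.77% of all probe sets called. Hsd3b5 fell by 5.75 (SE 0.77, adjusted p = 3.86e-05), to signals under the array median in all 4 UN-Veh animals, Serpina4-ps1 by 4.44 (SE 0.66, adjusted p = 0.000124) and Slco1a1 by 4.20 (SE 0.45, adjusted p = 2.43e-06). Smaller falls were those of Elovl3 by 1.02 (adjusted p = 0.0163), Igfals by 0.47 (adjusted p = 0.0491) and Igf1 by 0.45 (adjusted p = 0.0164). The median difference over the 10 genes was -0.30 in NN and -0.75 in UN, beside 0.00 and 0.02 over all probe sets. Whether these falls differed between NN and UN was not tested.

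The 3 large falls remained past the threshold, in NN and in UN, under each of the 31 alternative settings run for them. The 3 smaller falls in UN did not. Elovl3 was no longer called without UN replicate 4 (adjusted p = 0.0634) or 5 (0.0976) of 9 weeks or UN-Veh replicate 26 (0.0704), and Igf1 without UN replicate 4 (0.0945) or 5 (0.0542) of 9 weeks or UN-Veh replicate 24 (0.0694). Igfals was lost under 21 of 31 settings, each UN animal of 9 weeks and each UN-Veh animal left out among them, with adjusted p up to 0.81.

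The comparison of 17 with 9 weeks gave the earlier stage. In UN, Hsd3b5 fell by 6.08 (SE 0.51, limma adjusted p = 0.000155), with 3 of the 4 UN animals of 17 weeks under their array medians, Serpina4-ps1 fell by 3.67 (SE 0.53, adjusted p = 0.0139) and Slco1a1 by 3.06 (SE 0.45, adjusted p = 0.0143). These 3 of 10 genes stood against 0.122% of all probe sets, 31 in number. At the thresholds the study used, a linear fold of 2 and an unadjusted p under 0.05 (here from limma), 5 of 10 genes were lower, Elovl3 (-2.04) and Socs2 (-1.08) being added, against 1.31% of all probe sets. Without UN replicate 14 the differences of Hsd3b5, Serpina4-ps1 and Slco1a1 were -5.89, -3.29 and -2.53, with adjusted p of 2.5e-05, 0.00263 and 5.23e-05, and the differences of Elovl3 and Socs2 were -1.22 (adjusted p = 0.0561) and -1.26 (0.235). The calls of Slco1a1 and Serpina4-ps1 were lost when UN replicate 4, 5 or 6 of 9 weeks was left out, with adjusted p between 0.074 and 0.143, and that of Serpina4-ps1 also without UN replicate 13 of 17 weeks (0.0559).

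In NN the same interval gave 0 of 10 genes at an adjusted p under 0.05 by limma and by the unmoderated test of the study's methods, against 0.0158% of all probe sets, and 4 lower at an unadjusted p under 0.05, where 2.5% of all probe sets passed in either direction. At the study's thresholds 3 genes were lower, against 0.268%: Serpina4-ps1 with -2.56 (SE 0.53), Hsd3b5 with -2.13 (SE 0.51) and Socs2 with -1.68 (SE 0.47). The spread in this fit was estimated with the UN animals too, and without UN replicate 14 the difference of Serpina4-ps1, -2.56, passed the test (SE 0.44, adjusted p = 0.0235). The difference of the change between UN and NN was -3.94 (SE 0.72) for Hsd3b5, -2.09 (SE 0.64) for Slco1a1 and -1.28 (SE 0.55) for Igfals. These 3 had an unadjusted p under 0.05 (9.46e-05, 0.00591 and 0.0379) and an adjusted p of 0.893. Without UN replicate 14 the values of Hsd3b5, Slco1a1 and Igfals were -3.76, -1.56 and -0.86, and without replicates 13 and 14 they were -3.47, -1.48 and -0.49. At an adjusted p under 0.05 this interaction gave 0 genes, and 0% of all probe sets, by both tests, with 622 probe sets at an unadjusted p under 0.05.

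The effect of prenatal undernutrition was compared within each age. At 9 weeks 0 of 10 genes passed limma's adjusted threshold (0% of all probe sets, also 0 by the unmoderated test). Before adjustment the p was under 0.05 for 914 probe sets and 0 of the 10 genes, and 0 met the study's thresholds (0.0158% of all), although the dimmer probe set of Cish, given with that gene, did. The 95% intervals of UN minus NN at 9 weeks ran from -0.31 to 0.68 for Hsd3b5, from -0.28 to 0.37 for Slco1a1 and from -0.95 to 0.32 for Serpina4-ps1. Those of Socs2 and Elovl3 ran from -1.77 to 0.18 and from -0.10 to 1.03, that of Socs2 being the widest of these.

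At 17 weeks the log2 difference of UN and NN was -3.76 for Hsd3b5 (SE 0.55, limma adjusted p = 0.721) and -2.05 for Slco1a1 (SE 0.51, adjusted p = 0.721). Serpina4-ps1 had -1.43 (SE 0.56) and Igfals -1.05 (SE 0.43). These 4 of 10 genes met the study's thresholds, all lower in UN, where 0.264% of all probe sets did. None passed the adjusted threshold, which 0 of the 10 genes and 0% of all probe sets passed by either test, with 760 probe sets at an unadjusted p under 0.05. Without UN replicate 14 the differences of Hsd3b5, Slco1a1, Serpina4-ps1 and Igfals were -3.57, -1.51, -1.05 and -0.63, and without replicates 13 and 14 they were -3.28, -1.44, -0.78 and -0.26. Each of the 4 differences became smaller in size as these arrays were left out. Without replicates 13 and 14 those of Hsd3b5 and Slco1a1 stayed beyond a linear fold of 2, and those of Serpina4-ps1 and Igfals did not. UN and NN did not overlap for Hsd3b5, Slco1a1 and Igfals with all arrays, so leaving arrays out could not test this. The share of all probe sets without overlap is not given here, so this count has nothing to be set against. The median of the 10 genes was -0.95 with all arrays and -0.33 without replicate 14, beside -0.05 and 0.01 over all probe sets.

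At 22 weeks with vehicle, Slco1a1 was the single gene of the 10 at the study's thresholds (0.162% of all probe sets), with UN-Veh 1.62 below NN-Veh on the log2 scale of group means, 6.42 against 8.04 (SE of the difference 0.45, adjusted p = 0.142). At an adjusted p under 0.05 there were 0 of 10 genes by both tests, against 0.418% of all probe sets by limma, and 2 had an unadjusted p under 0.05, as did 9.31% of all probe sets. The other was Elovl3, with a difference of -0.54 (SE 0.22, unadjusted p = 0.0224). Hsd3b5 had -1.14, with an interval from -2.74 to 0.46. NN-Veh replicate 15, at 7.44, both raised the NN-Veh mean and widened the interval. The other NN-Veh animals had 3.17, 5.22 and 3.58, and UN-Veh lay between 3.23 and 4.11.

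**Figure D2:**
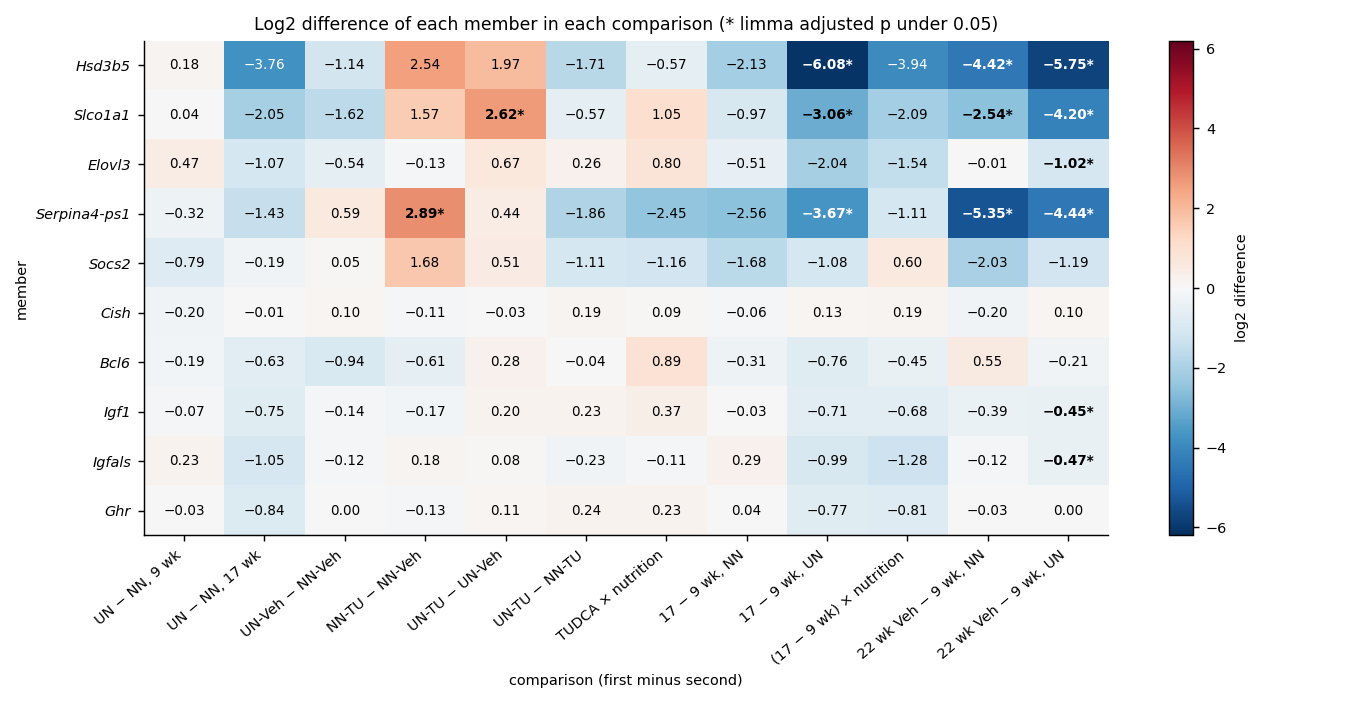
Log2 difference (colour and printed value, first group minus second) of each of the 10 genes (rows) in the 12 comparisons (columns), with an asterisk where the limma adjusted p is under 0.05. Hsd3b5, Slco1a1 and Serpina4-ps1 are lower at 17 or 22 weeks than at 9 weeks, and positive differences above 1 are found in the 2 TUDCA comparisons and, for Slco1a1, in the interaction.

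TUDCA was compared with vehicle within NN and within UN, and these comparisons share the vehicle animals with those above. In NN, Serpina4-ps1 rose by 2.89 (SE 0.64, limma adjusted p = 0.0256), 1 of 10 genes against 1.35% of all probe sets. At the study's thresholds 4 genes were higher, against 0.182% of all: Serpina4-ps1, Hsd3b5 with 2.54 (SE 0.77, adjusted p = 0.103), Socs2 with 1.68 (SE 0.53, adjusted p = 0.117) and Slco1a1 with 1.57 (SE 0.45, adjusted p = 0.0878). Within NN-TU all 4 were lowest in replicate 19, and without it all 4 rose, by 3.70 for Serpina4-ps1 (adjusted p = 0.000668), 3.06 for Hsd3b5 (0.0439), 2.21 for Socs2 (0.0188) and 1.84 for Slco1a1 (0.0439). The call of Serpina4-ps1 was lost without NN-Veh replicate 15 (adjusted p = 0.0887) or 18 (0.0772) or NN-TU replicate 20 (0.0614), 21 (0.0929) or 22 (0.102). Without NN-Veh replicate 15 Hsd3b5 was called instead (3.40, 0.0229), and without UN-Veh replicate 26, which adds only to the spread, Slco1a1 was called too (0.0453). NN-TU replicates 21 and 22 also had the lowest hepatocyte marker means of this cohort, 11.29 and 11.28. Without both, Serpina4-ps1 differed by 2.22 (adjusted p = 0.31). The high Socs2 signals of NN-TU were those of replicates 21 and 22, 7.44 and 7.46. Replicates 19 and 20 had 4.68 and 5.58, and NN-Veh lay between 3.85 and 5.20.

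In UN, Slco1a1 rose by 2.62 with TUDCA (SE 0.45, limma adjusted p = 0.0104), from a mean of 6.42 ± 1.14 to 9.04 ± 0.44 (SD, n = 4 each), 1 of 10 genes against 0.406% of all probe sets. It kept its call when any single animal was left out, and lost it under the unmoderated test (adjusted p = 0.152), a variance trend with robust estimation (0.0791) and all probe sets of the table (0.072). Hsd3b5 had 1.97 (SE 0.77, adjusted p = 0.349), measured from the same low UN-Veh signals, and with Slco1a1 made 2 of 10 genes higher at the study's thresholds, against 0.178% of all. Elovl3 had 0.67 (SE 0.22, unadjusted p = 0.00626, adjusted p = 0.226). Serpina4-ps1 and Socs2 had 0.44 and 0.51, with intervals from -0.90 to 1.78 and from -0.60 to 1.62.

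Whether TUDCA acted differently in UN was tested by the interaction, which gave 0 of 10 genes and 0% of all probe sets at an adjusted p under 0.05 by limma, with 3009 probe sets at an unadjusted p under 0.05. The unmoderated test called 2 probe sets, none of the 10 genes. Serpina4-ps1 had -2.45 (SE 0.91, unadjusted p = 0.0137, adjusted p = 0.288), the smaller TUDCA difference being that in UN, Elovl3 had 0.80 (unadjusted p = 0.0178) and Igf1 0.37 (0.0288). Without NN-TU replicate 19, Serpina4-ps1 passed (-3.26, SE 0.69, adjusted p = 0.0454). Between the treated groups, UN-TU and NN-TU, 0 of 10 genes passed the adjusted threshold by both tests (0.474% of all probe sets by limma), and 3 met the study's thresholds, against 0.0671%. These were Serpina4-ps1 (-1.86), Hsd3b5 (-1.71) and Socs2 (-1.11), all lower in UN-TU, and without NN-TU replicate 19 Serpina4-ps1 passed the adjusted threshold too (-2.67, adjusted p = 0.0235). A further 2 genes were higher in UN-TU at an unadjusted p under 0.05, Ghr by 0.24 (0.01) and Igf1 by 0.23 (0.0499). The 5 of 10 genes at that threshold compare with 17.1% of all probe sets, and the 11 hepatocyte markers were all above 0 in this comparison, with a median of 0.13.

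The feedback inhibitors differed from each other. SOCS2 attaches to the phosphorylated growth hormone receptor and promotes its degradation. The log2 signal of Socs2 was 6.67, 7.11 and 6.16 in NN and 7.05, 5.18 and 5.33 in UN at 9 weeks, and 5.61, 4.89, 4.69 and 4.70 in NN and 3.78, 5.30, 4.71 and 5.31 in UN at 17 weeks. At 22 weeks it was 4.53, 5.20, 4.87 and 3.85 in NN-Veh, 4.90, 3.995, 4.15 and 5.62 in UN-Veh, 4.68, 5.58, 7.44 and 7.46 in NN-TU and 4.53, 4.90, 4.74 and 6.54 in UN-TU. The NN animals of 9 weeks were above all 8 animals of 17 weeks and all 8 with vehicle, and 2 NN-TU animals were above every animal of 9 weeks. Socs2 passed limma's adjusted threshold in 0 of the 12 comparisons, and its nearest approach was NN-Veh against NN at 9 weeks. That difference, -2.03, was called without UN replicate 4 of 9 weeks, NN-TU replicate 19, 21 or 22, or UN-TU replicate 30 (adjusted p between 0.0272 and 0.0457), each an animal outside the 2 groups compared. A second, dimmer probe set of Socs2 lay between 4.22 and 5.03 in all animals and was called in 0 comparisons.

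CISH is the other STAT5-induced inhibitor, and its 2 probe sets did not behave alike. The brighter lay between 4.63 and 5.34 in all 30 animals and had no unadjusted p under 0.05 in any of the 12 comparisons. The dimmer had 5.01, 5.73 and 6.01 in NN and 4.79, 3.89 and 3.78 in UN at 9 weeks, and 4.22, 3.50, 3.50 and 3.85 in NN-Veh and 4.21, 3.98, 4.71 and 4.07 in UN-Veh. It was thus high in the NN animals of 9 weeks, without overlap with UN of that age. From 9 weeks to 22 weeks with vehicle it fell by 1.82 in NN (SE 0.34, limma adjusted p = 0.00282), where the brighter one had -0.20, and had 0.09 in UN. At 9 weeks UN minus NN was -1.43 on the dimmer probe set (SE 0.30, unadjusted p = 0.000789, adjusted p = 0.9999) and -0.20 on the brighter. With signs opposite to the brighter one it had 0.59 and -0.11 for NN-TU against NN-Veh and 0.12 and -0.03 for UN-TU against UN-Veh, none of them called.

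BCL6 represses many STAT5-activated genes in male liver. The log2 signal of Bcl6 was widely spread within groups, with 5.01, 5.99 and 6.75 in NN and 4.81, 6.41 and 5.98 in UN at 9 weeks, and 4.89, 4.92, 7.36 and 5.25 in NN and 5.74, 4.91, 5.29 and 3.96 in UN at 17 weeks. At 22 weeks it was 4.90, 7.08, 7.10 and 6.78 in NN-Veh, 5.27, 5.70, 5.55 and 5.59 in UN-Veh, 6.97, 5.62, 5.96 and 4.87 in NN-TU and 6.80, 4.69, 6.81 and 4.94 in UN-TU. Every neighbouring pair in its order overlapped. Its largest difference within an age was UN-Veh against NN-Veh, -0.94 (SE 0.50, interval from -1.98 to 0.11), and 0 of 12 comparisons had an unadjusted p under 0.05.

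The receptor and the endocrine products were nearly level. Ghr lay between 9.39 and 9.81 in 28 animals, the others being UN replicates 13 (9.13) and 14 (7.05) of 17 weeks. Igf1 was 9.90, 9.92 and 10.03 in NN and 10.01, 9.87 and 9.74 in UN at 9 weeks, 9.77, 9.35, 9.59 and 9.52 in NN-Veh and 9.51, 9.19, 9.61 and 9.37 in UN-Veh. The vehicle animals were below those of 9 weeks in each prenatal group, by less than 0.5 on the log2 scale. Igfals, the acid-labile subunit of the circulating complex, lay between 7.001 and 7.89 apart from UN replicates 13 (6.38) and 14 (5.46). At 17 weeks UN replicate 14 had 7.23 for Igf1, where the other 3 UN animals had 9.76, 9.92 and 9.76. TUDCA differences of Igf1, Igfals and Ghr lay between -0.17 and 0.20, with 0 calls.

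Other genes of the pathway and of the sex-biased programme were read from lists of known members. Among 18 measured components of growth hormone signalling (kinases, STAT factors, phosphatases, adaptors and inhibitors), 1 rose in NN from 9 weeks to 22 weeks with vehicle, Ptpn6, a tyrosine phosphatase, by 0.43 (limma adjusted p = 0.0127). In UN 2 rose, Ptpn6 by 0.40 (0.0124) and Shc1, an adaptor, by 0.37 (0.0444), and in the other 10 comparisons 0 were called. From 9 weeks to 22 weeks with vehicle 1.96% of all probe sets were called higher in NN and 4.7% in UN. Stat5b had 0.10 and 0.21 and Jak2 -0.11 and 0.06 over that interval in NN and UN. In the IGF list of 12 genes, Igfbp2, an IGF-binding protein of the circulation, fell by 1.52 in NN (SE 0.18, adjusted p = 2.41e-05) and by 1.36 in UN (adjusted p = 3.25e-05) over the same interval, and by 2.21 in UN from 9 to 17 weeks (adjusted p = 0.00935). Without UN replicate 14 the latter was -1.90 (0.000276), and without replicates 13 and 14 it was -1.77 (0.00102). Igfbp7 rose by 0.47 in NN (0.0337) and 0.65 in UN (0.00158).

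Igfbp1, a binding protein raised in fasting, gave a pattern within UN at 22 weeks. Its mean log2 signal was 7.38 ± 0.17 in NN-Veh, 6.33 ± 0.12 in UN-Veh, 7.19 ± 0.54 in NN-TU and 7.48 ± 0.52 in UN-TU (SD, n = 4 each). It was lower by 1.05 in UN-Veh than in NN-Veh (SE 0.22, limma adjusted p = 0.0411) and rose by 1.15 with TUDCA in UN (SE 0.22, adjusted p = 0.0251), these 2 comparisons sharing the UN-Veh animals. From 9 weeks to 22 weeks with vehicle it fell by 1.65 in UN (SE 0.42, adjusted p = 0.0165). The interaction was 1.34 (SE 0.32, unadjusted p = 0.000418, adjusted p = 0.112).

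Of 22 other measured male-biased genes, 9 fell and 1 rose in NN, and 13 fell and 0 rose in UN, from 9 weeks to 22 weeks with vehicle. Their median differences were -0.60 and -0.82. Of all probe sets 1.47% were called lower and 1.96% higher in NN, and 2.07% lower and 4.7% higher in UN. Cyp4a12b, a fatty acid hydroxylase, fell in both, with -2.01 in NN (SE 0.13, limma adjusted p = 1.25e-09) and -2.67 in UN (adjusted p = 2.38e-12), as did Selenbp2, a selenium-binding protein, with -2.07 (1.41e-05) and -2.73 (1.02e-07). Keg1, an acyltransferase-like gene of kidney and liver, had -1.22 (3.42e-05) and -1.82 (4.38e-08). At 17 weeks in UN 2 of the 22 had fallen since 9 weeks, Selenbp2 with -2.93 (0.0339) and Cyp4a12a with -2.17 (0.0449), and 10 had without UN replicate 14, where Selenbp2 had -2.44 and Cyp4a12a -1.81. Leaving that replicate out also raised the calls over all probe sets, from 31 to 241. Between UN-Veh and NN-Veh 2 were lower, Cyp4a12b by 0.58 (0.0248) and Keg1 by 0.67 (0.0378). With TUDCA, Cyp4a12b fell by 0.76 in NN (0.00229), the opposite direction to Serpina4-ps1, and in UN 0 of the 22 were called, with 5 higher and 1 lower at an unadjusted p under 0.05, a threshold that 10.6% of all probe sets passed. Probes of paralogues such as Cyp4a12a and Cyp4a12b may cross-hybridize.

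Of 22 measured female-biased genes, 4 rose and 3 fell in NN and 7 rose and 3 fell in UN over the same interval. The shares of all probe sets called were 1.96% higher and 1.47% lower in NN, and 4.7% higher and 2.07% lower in UN. Cyp2b9, a xenobiotic-metabolizing P450, rose by 3.46 in NN (SE 0.46, limma adjusted p = 0.000106) and 5.16 in UN (adjusted p = 1.48e-07). Cyp17a1, the steroid hydroxylase and lyase, rose by 3.07 (0.000123) and 2.64 (0.000244), and Cyp2b13 by 1.65 (0.00438) and 2.44 (3.4e-05). Cyp3a44 went the other way, by -3.05 in NN (2.49e-09) and -2.28 in UN (1.77e-07), as did Cyp2c69, by -1.35 (0.000487) and -1.06 (0.00201). The median of the list was 0.03 in NN and 0.09 in UN. No test compared the female-biased with the male-biased list. Between UN-Veh and NN-Veh, Cyp2b9 was higher by 0.79 (0.0156) and Cyp3a44 by 0.93 (0.0432). With TUDCA 1 of the 22 was called higher and 3 lower in NN, the higher one being Cyp2b13 by 1.44 (0.0256). In UN 0 were called higher and 1 lower, Cyp3a44 by 0.97 (0.0353). From 9 to 17 weeks, with all arrays, Cyp3a44 was the 1 gene of the list called in NN, with -2.96 (0.000194), and in UN, with -3.25 (5.98e-05). Without UN replicate 14, 4 of the list were called higher and 1 lower in UN, and 1 higher and 2 lower in NN. Calls over all probe sets then rose too, from 31 to 241 in UN and from 4 to 46 in NN.

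**Figure D3:**
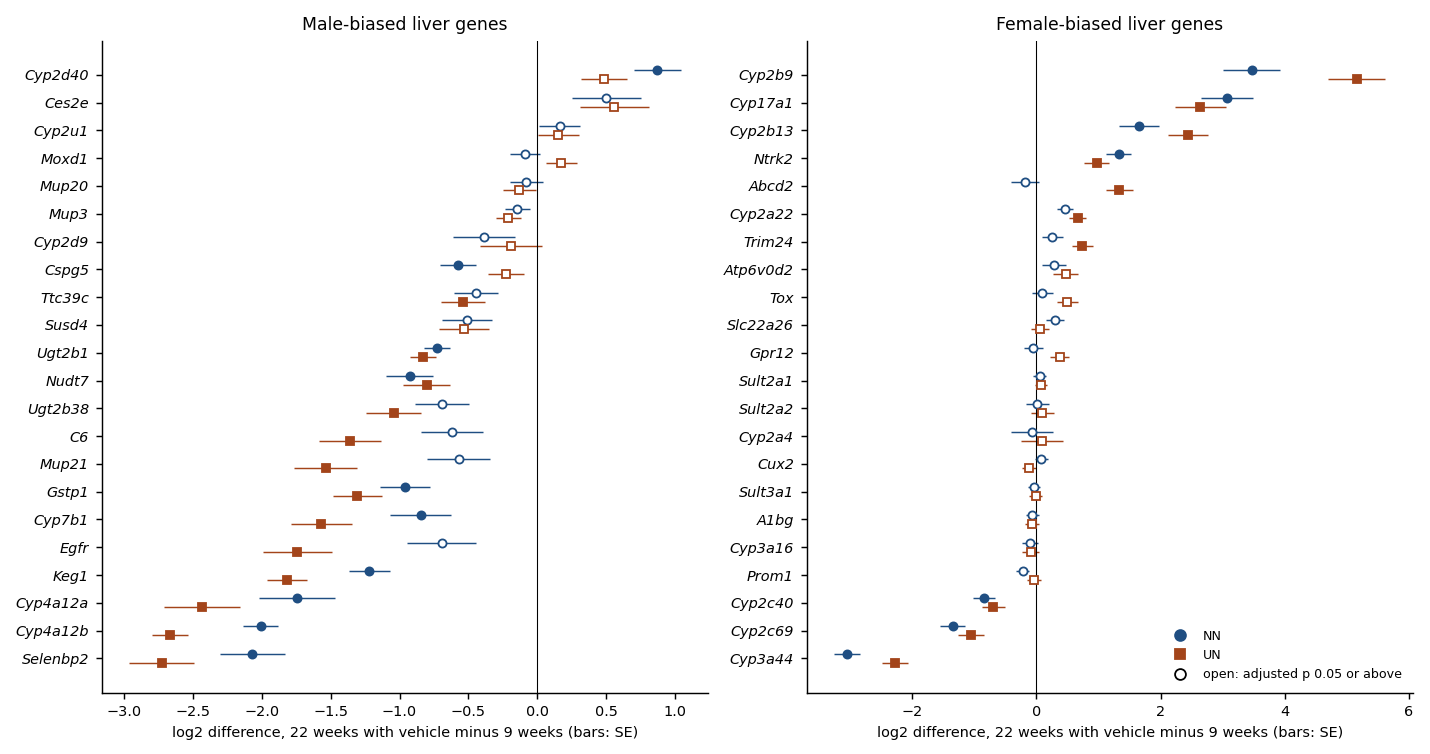
Log2 difference between 22 weeks with vehicle and 9 weeks (x axis, bars are SE) for 22 male-biased (left) and 22 female-biased genes (right), with circles for NN and squares for UN, filled where the limma adjusted p is under 0.05. Most male-biased genes lie left of 0, Selenbp2 and Cyp4a12b farthest, and the female-biased genes spread to both sides, from Cyp3a44 to Cyp2b9.

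Of 13 measured liver transcription factors of the growth hormone network, Onecut1 (HNF6), which growth hormone induces, fell from 9 weeks to 22 weeks with vehicle in both, with -2.59 in NN (SE 0.49, limma adjusted p = 0.00356) and -1.71 in UN (adjusted p = 0.0348). Foxa1 fell by 0.80 in NN (0.0194), and Foxa3 by 1.06 (0.000262), Zbtb20 by 0.44 (0.0122) and Hnf4a by 0.41 (0.00835) in UN. Over that interval 1.47% of all probe sets were called lower in NN and 2.07% in UN. In NN-TU against NN-Veh 1 of the 13 was called, Nr1i2 (PXR), a xenobiotic receptor, which fell by 0.43 (adjusted p = 0.0294). Onecut1 differed by 1.43 between NN-TU and NN-Veh (SE 0.46, adjusted p = 0.125), with means of 7.66 and 6.23. Cux2, a female-biased repressor of male-biased genes, differed by 0.08 in NN and -0.12 in UN between 22 weeks and 9 weeks.

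The 10 genes were then compared with each other and with all others over animals. These correlations describe points that share group, cohort and array quality, so no p is given. Without UN replicate 14 (n = 29 arrays), Hsd3b5 and Slco1a1 had r = 0.87, and 0.59 for deviations from the group means. Serpina4-ps1 and Socs2 had 0.70 and 0.56. Socs2 did not follow Hsd3b5 within groups (-0.03) or Slco1a1 (-0.01). Serpina4-ps1 had 0.78 with Slco1a1 and 0.77 with Hsd3b5 over the 29 arrays, and 0.48 and 0.21 within groups. Slco1a1 and Elovl3, both low in replicate 14, had 0.54 over the 29 arrays and 0.58 within groups, the latter raised by that shift. Within groups Bcl6 was inversely related to Cish (-0.53), Socs2 (-0.49), Serpina4-ps1 (-0.35) and Hsd3b5 (-0.33). The value of Cish is that of its brighter probe set, which lay between 4.63 and 5.34 and did not behave like the dimmer one. Igf1 and Ghr, both low in replicate 14, had 0.26 over the 29 arrays, and their within-group value of 0.79 was raised by the same shift.

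For each gene the 2 other genes with the highest Pearson r over the 30 arrays were found. Serpina4-ps1 was followed by Smad9 (0.89) and Onecut1 (0.85, within groups 0.75), and Onecut1 also came after E2f8 (0.81) for Socs2 (0.75). Slco1a1 was followed by Mup21, a major urinary protein gene, (0.82, within groups 0.77) and Apom (0.82), and Hsd3b5 by Cdh1 (0.86, within groups 0.42) and Apom (0.85). Elovl3 was followed by Clock, a core gene of the circadian clock, (0.96, without replicate 14 0.86) and Clpx (0.94). Those of Igf1 (Wac and Sema4g, 0.97 and 0.96), Igfals (Klhl2 and Alg11, both 0.89) and Ghr (Abca6 and Sephs2, both 0.99) were drawn out by replicate 14, without which they were between 0.71 and 0.88. Bcl6 (Mtx3, 0.69, and Ccdc141, 0.63) and Cish (Lrrc9, 0.72, and Bub1b, 0.63) had no close follower.

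**Figure D4:**
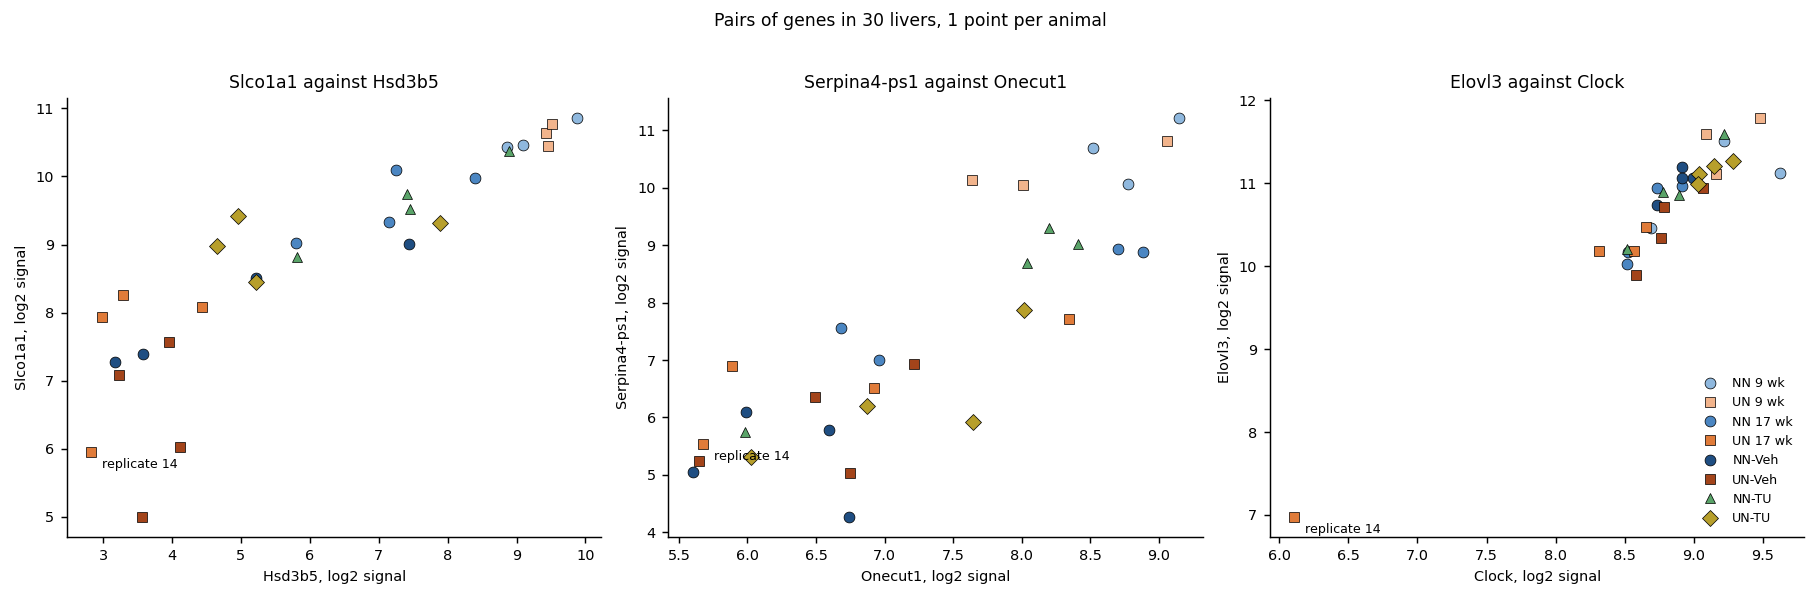
Log2 signals of 3 pairs of genes in the 30 animals (1 point per animal, colour and shape by group): Slco1a1 against Hsd3b5, Serpina4-ps1 against Onecut1 and Elovl3 against Clock. Slco1a1 and Hsd3b5 decline together from the animals of 9 weeks, and in the third panel UN replicate 14 of 17 weeks (6.11 and 6.98) lies alone.

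Levels of other lists moved beside these results, and their part in them was not tested. From 9 weeks to 22 weeks with vehicle, 2 of 8 macrophage markers rose in NN and 1 in UN (Cd68 by 0.63 and 0.80), 4 of 12 acute phase genes rose in each (Saa2 by 2.24 and 3.09), 3 of 7 stellate cell markers rose in UN, and 1 of 11 hepatocyte markers fell in UN (Cps1 by 0.39). Over this interval 1.96% of all probe sets were called higher in NN and 4.7% in UN, and 2.07% lower in UN. In NN-TU against NN-Veh, 7 of 8 macrophage markers were below 0 (median -0.31), 4 of them at an unadjusted p under 0.05, and Adgre1 fell by 0.70 (adjusted p = 0.0256). The 11 hepatocyte markers were also all below 0 there (median -0.09), with 0 called and 3 lower at an unadjusted p under 0.05. In UN-TU against UN-Veh, 7 of 8 macrophage markers were above 0 (median 0.24) with 0 called, and 1 of 12 acute phase genes fell, Orm2 with -1.52 (adjusted p = 0.0275). No lymphocyte, endothelial or cholangiocyte marker was called in any comparison (0 of each list). The hepatocyte marker mean lay between 11.6 and 11.8 at 9 weeks, 11.5 and 11.7 in NN-Veh and 11.5 and 11.6 in UN-Veh. The time of day at which animals were taken was not given in the sources used here. Of 16 clock genes, UN-TU against UN-Veh gave 0 calls, with 4 higher and 7 lower at an unadjusted p under 0.05 (10.6% of all probe sets), such as Arntl with 1.10 (adjusted p = 0.0901) and Per3 with -0.94 (0.084).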

How the data were processed

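Total RNA of 30 male livers was hybridized to Affymetrix mouse gene 2.1 ST array strips, 1 array per animal. The deposited values are log2 signals per probe set, which the authors summarized and normalized in Affymetrix Expression Console. Its version, the summarization method and the genome build are not given in the sources used here. Strip, scan and litter were not examined, and p-values measure the spread between animals, among which littermates may occur. Precision is limited by how many arrays there were, and no arrays were identical (0 pairs).

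Of 41345 probe sets, 25341 with a gene name were tested, 23521 of them with 1 symbol and 1820 with several, and 16004 without a name were left out. Groups were taken from the labels. For 12 comparisons, linear models (lmFit and eBayes of limma 3.58.1, R 4.3.3) were fitted within the cohorts compared, with Benjamini-Hochberg adjustment over all 25341. The fits were tested on simulated data. limma stood in place of the unmoderated analysis of variance of the study's methods, which was run as an alternative with fits of all 30 arrays, a variance trend, array weights, repeated quantile normalization, brighter probe sets, all probe sets, the mean of a gene's probe sets, and each animal left out. Leaving out UN replicates 13 and 14, or NN-TU replicates 21 and 22, together was chosen after seeing the data.

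The 10 genes and the lists were chosen with earlier results of these data known. Named from the lists were up to 4 genes per comparison with the smallest p among those called (up to 2 where none was), beside the 2 closest followers of each of the 10 genes and probe sets that disagreed. Jak2, Stat5b, Cux2, Cyp2b13, Onecut1 and the UN values of list genes named in NN were given beyond this rule, after their values were seen. Python 3.11.15, pandas 2.3.3 and matplotlib 3.10.9 were used for the rest.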

Additional observations from a re-analysis of the deposited data

Results flagged for a closer look

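In 6 of 60 sets of 4 animals (10 genes in 6 groups) the highest or lowest animal was separated from the other 3 by more than Dixon's critical share of the group's range at the 95% level. Chance alone would mark about 1 in 20 groups. Of these, 3 were in UN replicate 14 of 17 weeks, with a log2 signal of 5.96 for Slco1a1, 6.98 for Elovl3 and 7.23 for Igf1. NN-TU replicate 19 had 5.75 for Serpina4-ps1, NN replicate 9 of 17 weeks had 7.36 for Bcl6 and NN-Veh replicate 15 had 4.90 for Bcl6. NN replicate 9 of 17 weeks had the lowest Hsd3b5 of its group, 5.79, and NN-Veh replicate 15 the highest, 7.44.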

How the results depend on the processing

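No result changed sign with a call (0 of the alternatives). The count of the 10 genes called for NN-TU against NN-Veh, 1, was 0 under the unmoderated test, all 30 arrays, a variance trend, all probe sets and without NN-TU replicates 21 and 22, and 0 to 4 with each animal left out. For UN-TU against UN-Veh, 1, it was 0 under the unmoderated test, a variance trend and all probe sets. For UN-TU against NN-TU and the TUDCA interaction, 0, it was 0 to 1 with each animal left out. For UN against NN at 17 weeks, 0, it was 2 with array weights (Hsd3b5 and Slco1a1). For 17 against 9 weeks in NN, 0, it was 3 with array weights, 1 without UN replicates 13 and 14 and 0 to 1 with each animal left out. For 17 against 9 weeks in UN, 3, it was 1 under the unmoderated test and 1 to 3 with each animal left out. It was up to 4 under other settings, Elovl3 being called too with all 30 arrays or array weights. For 22 weeks with vehicle against 9 weeks in NN, 3, it was 5 with the brighter probe sets and without NN-TU replicates 21 and 22, and 3 to 5 with each animal left out. In UN, 6, it was 3 with all 30 arrays and 3 to 6 with each animal left out. The causes were not tested. Of the 14 called differences, 52 of 398 settings lost the call. No paired analysis was possible because the replicate numbers run from 1 to 30 without repeats. Hsd3b5, Cish and the dimmer Socs2 probe set lay near the array medians in many animals, where small differences cannot be read.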
